A study of Hapsidospora chrysogena with 9 samples.

Results

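In 71 genes of the cephalosporin-producing fungus Hapsidospora chrysogena (also called Acremonium chrysogenum), transcript levels were higher at 96 h than at 48 h in a strain overexpressing the transcription factor gene AcmybA, while the knockout and the wild type ended near where they began. The 71 were chosen from 7360 genes with a mean of at least 10 FPKM (sequenced fragments relative to the transcript's length and the library's size) over the 9 libraries, out of 8899 genes in the deposited table. The choice was made on log2(FPKM + 1). A gene had to be higher by at least 1 at 96 h than at 48 h in overexpression, and to differ by less than 0.5 between those times in the knockout and in the wild type. Its mean over the 3 times also had to lie within 0.5 of the wild-type mean in overexpression and in the knockout. These quantities were fixed by the choice, so they are given below as descriptions, with no test.

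The RNA came from mycelium grown in LPE medium, with 1 polyA RNA-seq library for each strain at 48, 72 and 96 h. The strains were AcmybAOE, labelled as overexpressing AcmybA, ∆AcmybA, labelled as an AcmybA knockout, and the wild type. How the overexpression was driven, and whether each mutant is a single clone, is not given in the sources used here. No label speaks of a repeated culture, so there are no replicates and no p-values.

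Myb proteins bind DNA through helix-turn-helix repeats and regulate transcription in plants, animals and fungi. In filamentous fungi, Myb-type regulators are known to act on asexual sporulation and on secondary metabolism. The study asked what AcmybA does to conidiation, the formation of asexual spores, and to the production of cephalosporin C, a beta-lactam antibiotic. The genes carry protein identifiers without names, so no function can be given for any of the 71, and AcmybA itself could not be picked out to check the strain labels. The planned lists for cephalosporin biosynthesis, conidiation and other functions could not be matched.

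The libraries summed to between 852915 and 1124539 FPKM, with medians between 37.0 and 41.5 FPKM. The read number was not given, but low values step by what 1 read is worth, and relative depth was estimated from them. Against wild type at 96 h it was 1.77 to 2.39 in overexpression, 0.829 to 2.39 in the knockout and 0.930 to 0.949 in the other wild-type libraries. The knockout estimate at 48 h is loose. All 3 overexpression libraries were thus estimated as deeper than the wild-type libraries, and so was the knockout at 48 h.

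The 71 genes ran mostly at moderate levels. Their median mean level was 43.2 FPKM, against 53.4 FPKM over all 7360 genes. Of the 71, 13 lay between 10 and 20 FPKM, 29 from 20 to 50, 15 from 50 to 100, 8 from 100 to 200, and 6 at 200 or more. In percent, 40.8% lay from 20 to 50 FPKM, where 33.2% of all genes did. At the low end, 10 of the 71 were under 10 FPKM in overexpression at 48 h, and the lowest was at 4.57 FPKM.

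In overexpression the 96 h minus 48 h difference had a median of 1.22 on the log2(FPKM + 1) scale and reached 2.64. In FPKM, the 96 h level was 2.01 to 6.63 times the 48 h level, with a median of 2.40. A difference of at least 1, which all 71 had by choice, was seen in 990 of the 7360 genes, or 13.5%. Most of the 71 sat near that threshold, with 12 at 1.5 or more and 2 at 2 or more. Over all genes, 560 (7.61%) were at 1.5 or more and 298 (4.05%) at 2 or more, all of them among the 990. Large gains were thus less frequent in the 71 than in the 990. Of those 990, 275 had a size under 0.5 in the wild type, 136 of these also in the knockout, and 71 of these also met the limits on strain means. Most of the 990 thus did not stay within 0.5 in both other strains, and many rose there too. Of the 990, 433, or 43.7%, were also higher by at least 1 in the wild type, against 10.6% of all genes. In the knockout 300, or 30.3%, were, against 6.97% of all genes.

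The median level of the 71 genes was 24.1, 52.2 and 58.8 FPKM in overexpression at 48, 72 and 96 h. It was 41.8, 36.0 and 40.5 FPKM in the knockout and 35.9, 46.6 and 41.1 FPKM in the wild type at the same times. Overexpression thus began below the other strains and ended above them. Together the 71 genes made up 0.312%, 1.04% and 1.07% of the FPKM total of the overexpression libraries. They made up 0.668%, 0.491% and 0.644% in the knockout and 0.530%, 0.659% and 0.599% in the wild type. The total of the overexpression libraries itself fell, from 1124539 FPKM at 48 h to 852915 FPKM at 96 h, which adds to the gain in share. In FPKM the 71 genes summed to 3510, 9518 and 9132 in overexpression. A gain from 48 to 96 h in that strain is part of how the 71 genes were chosen. The most abundant of them, KFH42642.1, weighed heavily in these sums. Without it the shares were 0.244%, 0.651% and 0.827% in overexpression, 0.438% to 0.461% in the knockout and 0.409% to 0.516% in the wild type.

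**Figure D1:**
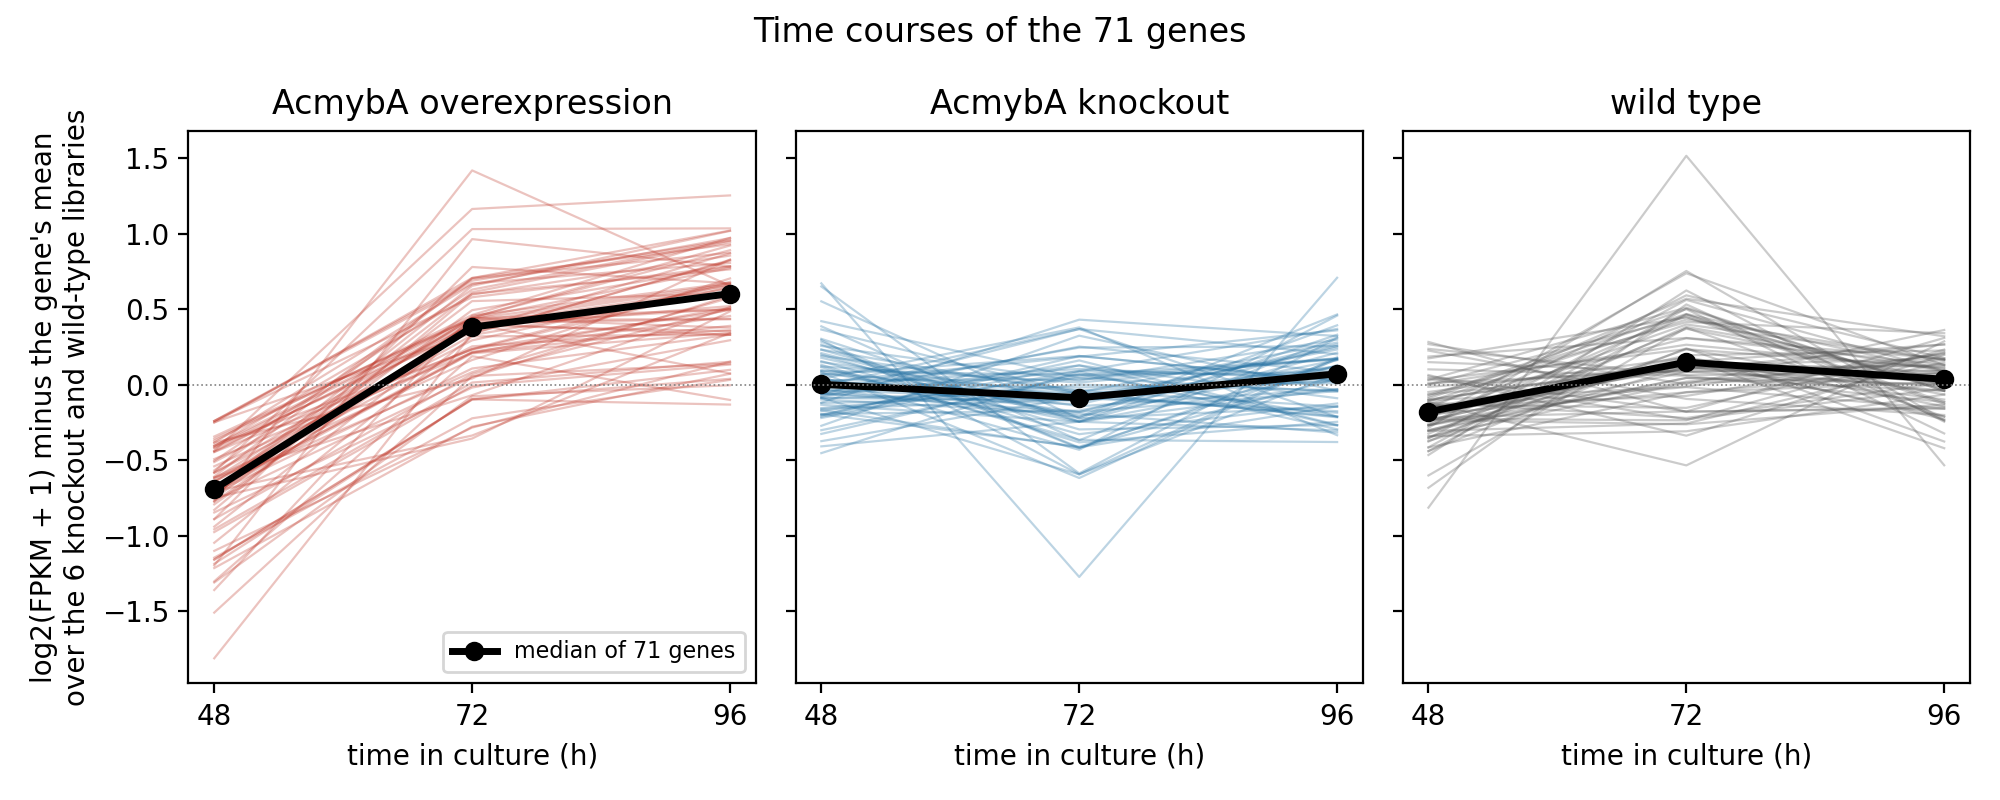
Time courses of the 71 genes, 1 panel per strain, with time in h on the x axis. The y axis is log2(FPKM + 1) minus the gene's mean over the 6 knockout and wild-type libraries; thin lines are genes and the thick line is their median. Most of the gain in overexpression lies between 48 and 72 h, the knockout is nearly level and the wild type is slightly higher at 72 h.

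The largest difference was in KFH45626.1, which was at 13.0, 61.2 and 86.3 FPKM in overexpression at 48, 72 and 96 h. It was at 58.2, 35.8 and 54.2 FPKM in the knockout and at 42.6, 54.0 and 48.6 FPKM in the wild type. Its overexpression library at 48 h was the lowest of the 9 and that at 96 h the highest, and the 6 other-strain libraries spanned 0.69 on the log2 scale, against a difference of 2.64 in overexpression. KFH46026.1 was next, and was also the second most abundant of the 71. It was at 232, 820 and 953 FPKM in overexpression, at 702, 573 and 516 FPKM in the knockout, and at 641, 622 and 551 FPKM in the wild type. Here the other strains both ended lower than they began, by 0.44 in the knockout and 0.22 in the wild type on the log2 scale, against a gain of 2.03 in overexpression.

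The gene with the smallest range outside overexpression was KFH47903.1, whose 6 knockout and wild-type libraries spanned 0.24 on the log2 scale. It was at 26.8, 24.8 and 29.1 FPKM in the knockout and at 24.9, 29.5 and 26.0 FPKM in the wild type. In overexpression it was at 18.1, 31.7 and 38.1 FPKM, so the 48 h library lay under this band and those at 72 and 96 h above it. With no replicates, the spread over these 6 libraries was the scale used for the size of a difference; it holds strain and time effects as well as error. Its SD had a median of 0.26 over the 71 genes and 0.35 over all 7360, but a small spread is part of how the 71 were chosen. The difference in overexpression exceeded the whole range of the 6 libraries in 67 of the 71 genes, against 11.4% of all genes. Among all genes higher by at least 1 in overexpression, the share was 51.4%. The limits on the gain, on the other strains and on the strain means favour such an excess. The count of 67 thus describes the 71 genes and is no separate support.

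Overexpression changed places with the other strains between 48 and 96 h. At 48 h it was the lowest of the 3 strains in 65 of the 71 genes, or 91.5%, against 30.7% of all 7360 genes. At 96 h it was the highest in 59, or 83.1%, against 37.1% of all genes. The change from lowest at 48 h to highest at 96 h was seen in 53 of the 71 genes, or 74.6%. It was seen in 7.96% of all genes and in 23.2% of the 990 genes higher by at least 1 in overexpression. Similar strain means together with a gain in overexpression favour such a crossing, so these counts describe the 71 genes and are no separate support.

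At 48 h overexpression was lower than the knockout by at least 0.5 in 49 of the 71 genes, against 22.4% of all genes, and lower than the wild type in 35, against 17.4%. Its median difference at that time was -0.69 from the knockout and -0.50 from the wild type. At 96 h it was higher by at least 0.5 than the knockout in 38 genes, against 21.6% of all, and than the wild type in 41, against 19.6%. The median differences were then 0.57 and 0.54. Over all 7360 genes these 4 medians lay between -0.01 and 0.12. The limits on the strain means largely fix this balance of a low start and a high finish.

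The low start and the high finish did not always come in the same gene. Overexpression was under all 6 other-strain libraries at 48 h in 63 of the 71 genes, against 18.8% of all, and over all 6 at 96 h in 53, against 21.5%. In 47 of the 71 genes (66.2%, against 2.92% of all genes) it was both. In 16 genes (22.5%, against 15.9% of all) it was under all 6 at 48 h but not over them at 96 h. In 6 genes (8.45%, against 18.6% of all) it was over all 6 at 96 h only. Among the 990 genes higher by at least 1 in overexpression, these shares were 56.3%, 45.6%, 14.9%, 41.3% and 30.6%, in the order given. The limits on the gain, on the other strains and on the strain means favour a low start with a high finish. The counts thus describe the 71 genes and are no separate support. KFH48558.1 is an example of a low start without a high finish. It was at 24.6, 75.0 and 79.4 FPKM in overexpression, at 75.5, 82.3 and 73.3 FPKM in the knockout, and at 56.5, 72.7 and 75.0 FPKM in the wild type. KFH45097.1 had the opposite form, at 147, 450 and 479 FPKM in overexpression, 146, 213 and 163 FPKM in the knockout, and 228, 248 and 226 FPKM in the wild type. Its overexpression level at 48 h was close to that of the knockout, and its levels at 72 and 96 h were far above every other library.

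**Figure D2:**
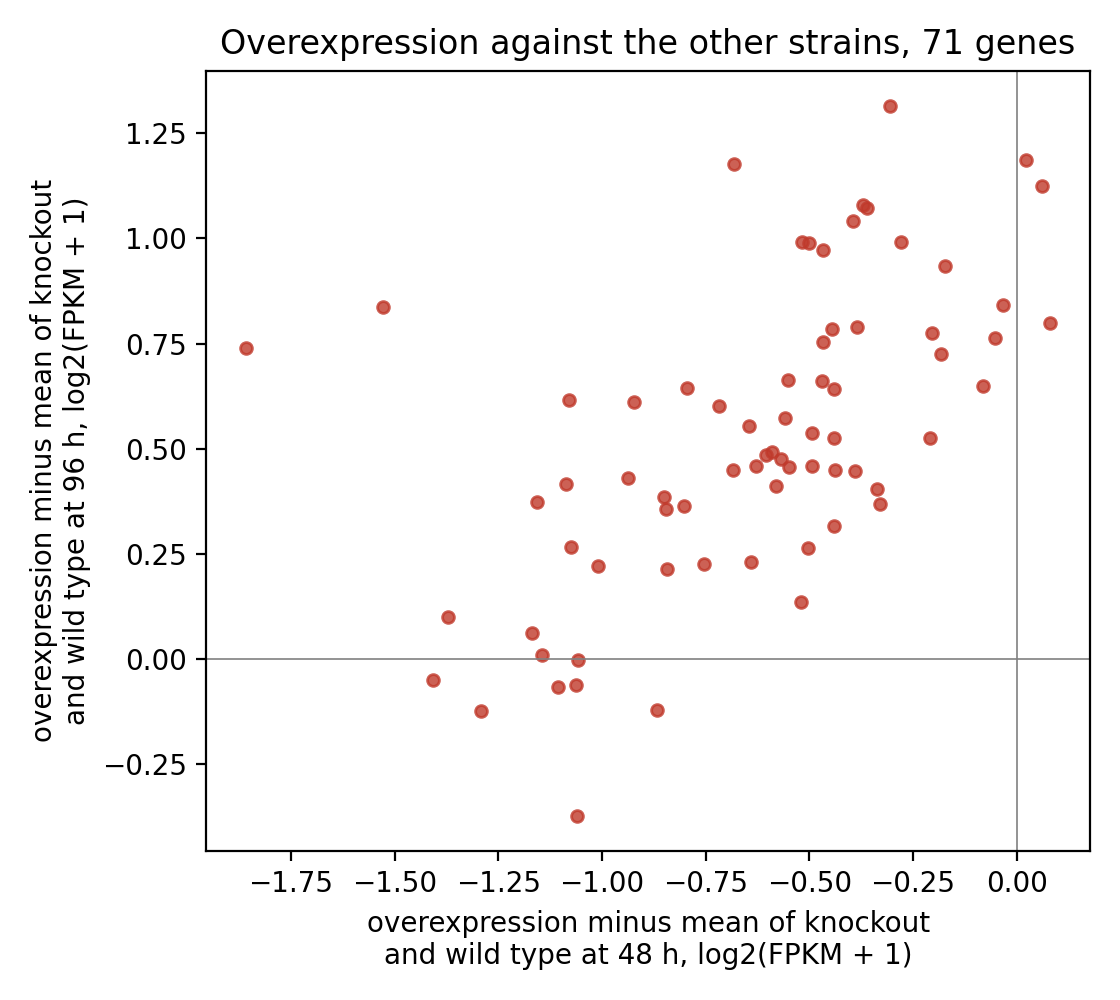
Each point is 1 of the 71 genes; the x axis is overexpression minus the mean of knockout and wild type at 48 h and the y axis the same at 96 h, both on the log2(FPKM + 1) scale. Below 0 at 48 h lie 68 genes, against 43.2% of all 7360, and above 0 at 96 h lie 64, against 49.7%. The medians are -0.56 and 0.49. The choice of the 71 genes favours both positions.

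In 2 of the 71 genes overexpression was neither under the 6 other libraries at 48 h nor over them at 96 h. This held in 62.6% of all genes and 13.1% of the 990, and the choice makes it rare. In each of the 2 genes a 72 h library of another strain set an end of the range. KFH45164.1 stood at 30.0, 53.7 and 62.1 FPKM in overexpression, at 41.4, 30.4 and 32.1 FPKM in the knockout, and at 19.8, 104 and 24.3 FPKM in the wild type. The wild-type library at 72 h was the highest of the 9. KFH42642.1, the most abundant of the 71, was at 771, 3530 and 2078 FPKM in overexpression, at 2102, 545 and 2156 FPKM in the knockout, and at 1276, 1495 and 1125 FPKM in the wild type. Its knockout library at 72 h was the lowest of the 9 and its overexpression library at 72 h the highest. KFH45164.1 and KFH42642.1 meet the limits at 48 and 96 h without being level in every strain. A range of at least 1 over the 3 times was found in 2 of the 71 genes in the knockout, against 21.5% of all genes, and in 4 in the wild type, against 24%. The limits at 48 and 96 h and on the strain means favour such low counts.

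The 72 h libraries entered the choice only through the strain means and the floor on the mean of the 9 libraries. By 72 h the 71 genes had covered a median of 80.0% of their 96 h minus 48 h difference in overexpression. The 990 genes higher by at least 1 had covered 82.5%, so the timing was close to that of other genes higher at 96 h in this strain. On the log2 scale the median change was 0.96 from 48 to 72 h and 0.23 from 72 to 96 h. The first step was at least 0.5 in 68 of the 71 genes (95.8%), against 23.7% of all genes and 96.7% of the 990. It was at least 1 in 32 (45.1%), against 11.2% of all genes and 72.9% of the 990. The second step was at least 0.5 in 8 (11.3%), against 6.21% of all genes and 27.1% of the 990. It was at least 1 in 0, against 0.938% and 5.45%. Large steps were thus less frequent in the 71 than in the 990.

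By class, 1 gene had covered less than 33.3% of its difference by 72 h and 14 had covered between 33.3% and 66.7%. Another 47 had covered between 66.7% and 100%, and 9 were highest at 72 h. The last class held 12.7% of the 71 genes, 21.5% of the 990 and 20.6% of all 7360. Latest was KFH43967.1, with 31.8% covered, at 39.5, 52.2 and 94.4 FPKM in overexpression, 55.4, 84.3 and 65.3 FPKM in the knockout, and 52.3, 79.1 and 72.6 FPKM in the wild type. At 72 h its overexpression library was still below those of the other strains. KFH48263.1 followed with 35.0%, at 24.1, 32.7 and 57.2 FPKM in overexpression, 34.9, 24.2 and 26.6 FPKM in the knockout, and 32.5, 45.7 and 30.9 FPKM in the wild type. At the other end, KFH45403.1 stood at 48.5, 125 and 99.0 FPKM in overexpression, 123, 72.6 and 117 FPKM in the knockout, and 84.6, 92.9 and 84.1 FPKM in the wild type. Its knockout values at 48 and 96 h lay above its overexpression value at 96 h, so overexpression was above the knockout at 72 h and below it at 48 and 96 h.

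**Figure D3:**
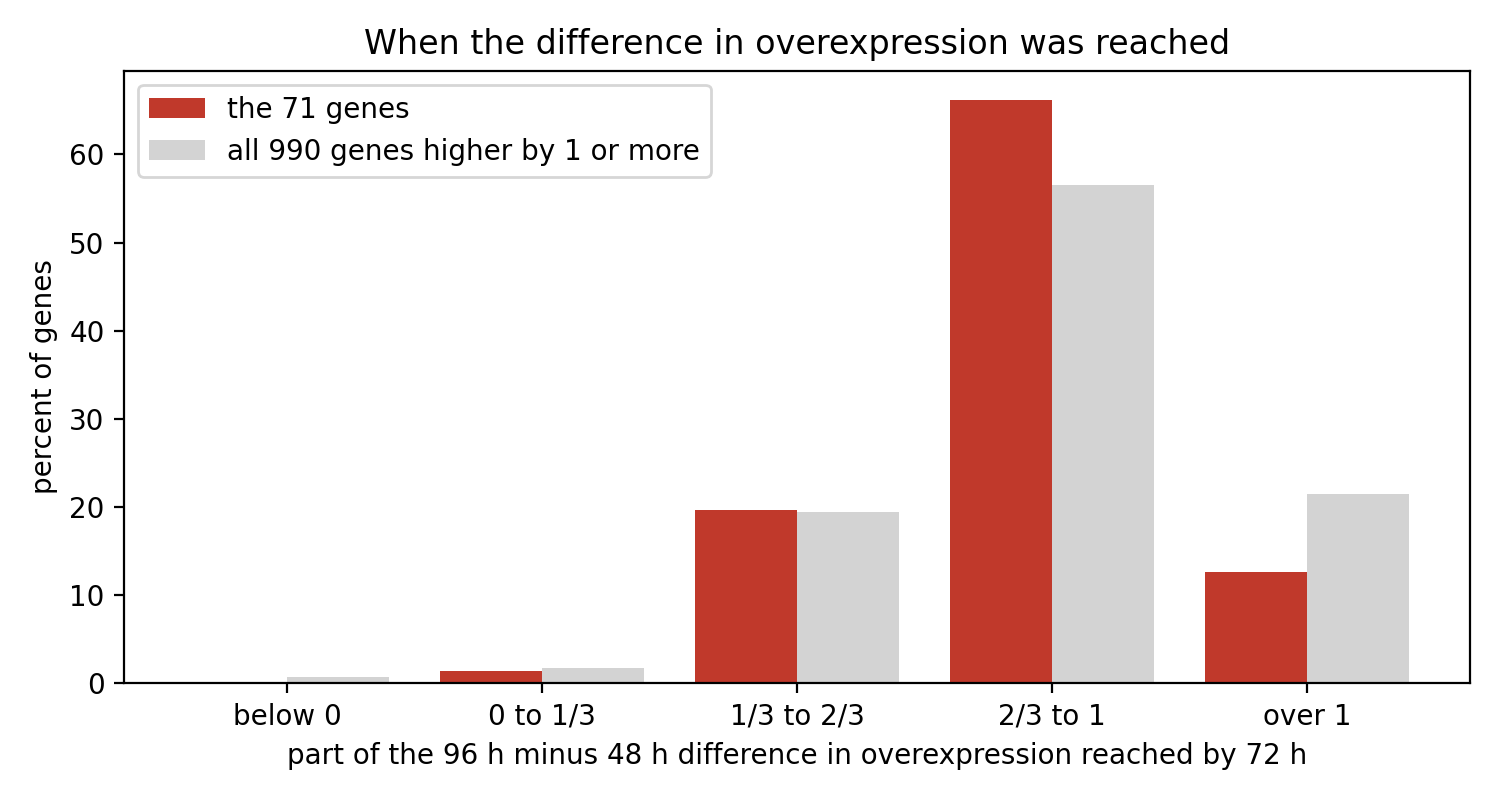
Bars give the percent of genes by the part of the 96 h minus 48 h difference in overexpression that was reached by 72 h, for the 71 genes and for all 990 genes higher by at least 1. The class from 2/3 to 1 holds 66.2% of the 71 genes and 56.6% of the 990.

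**Figure D4:**
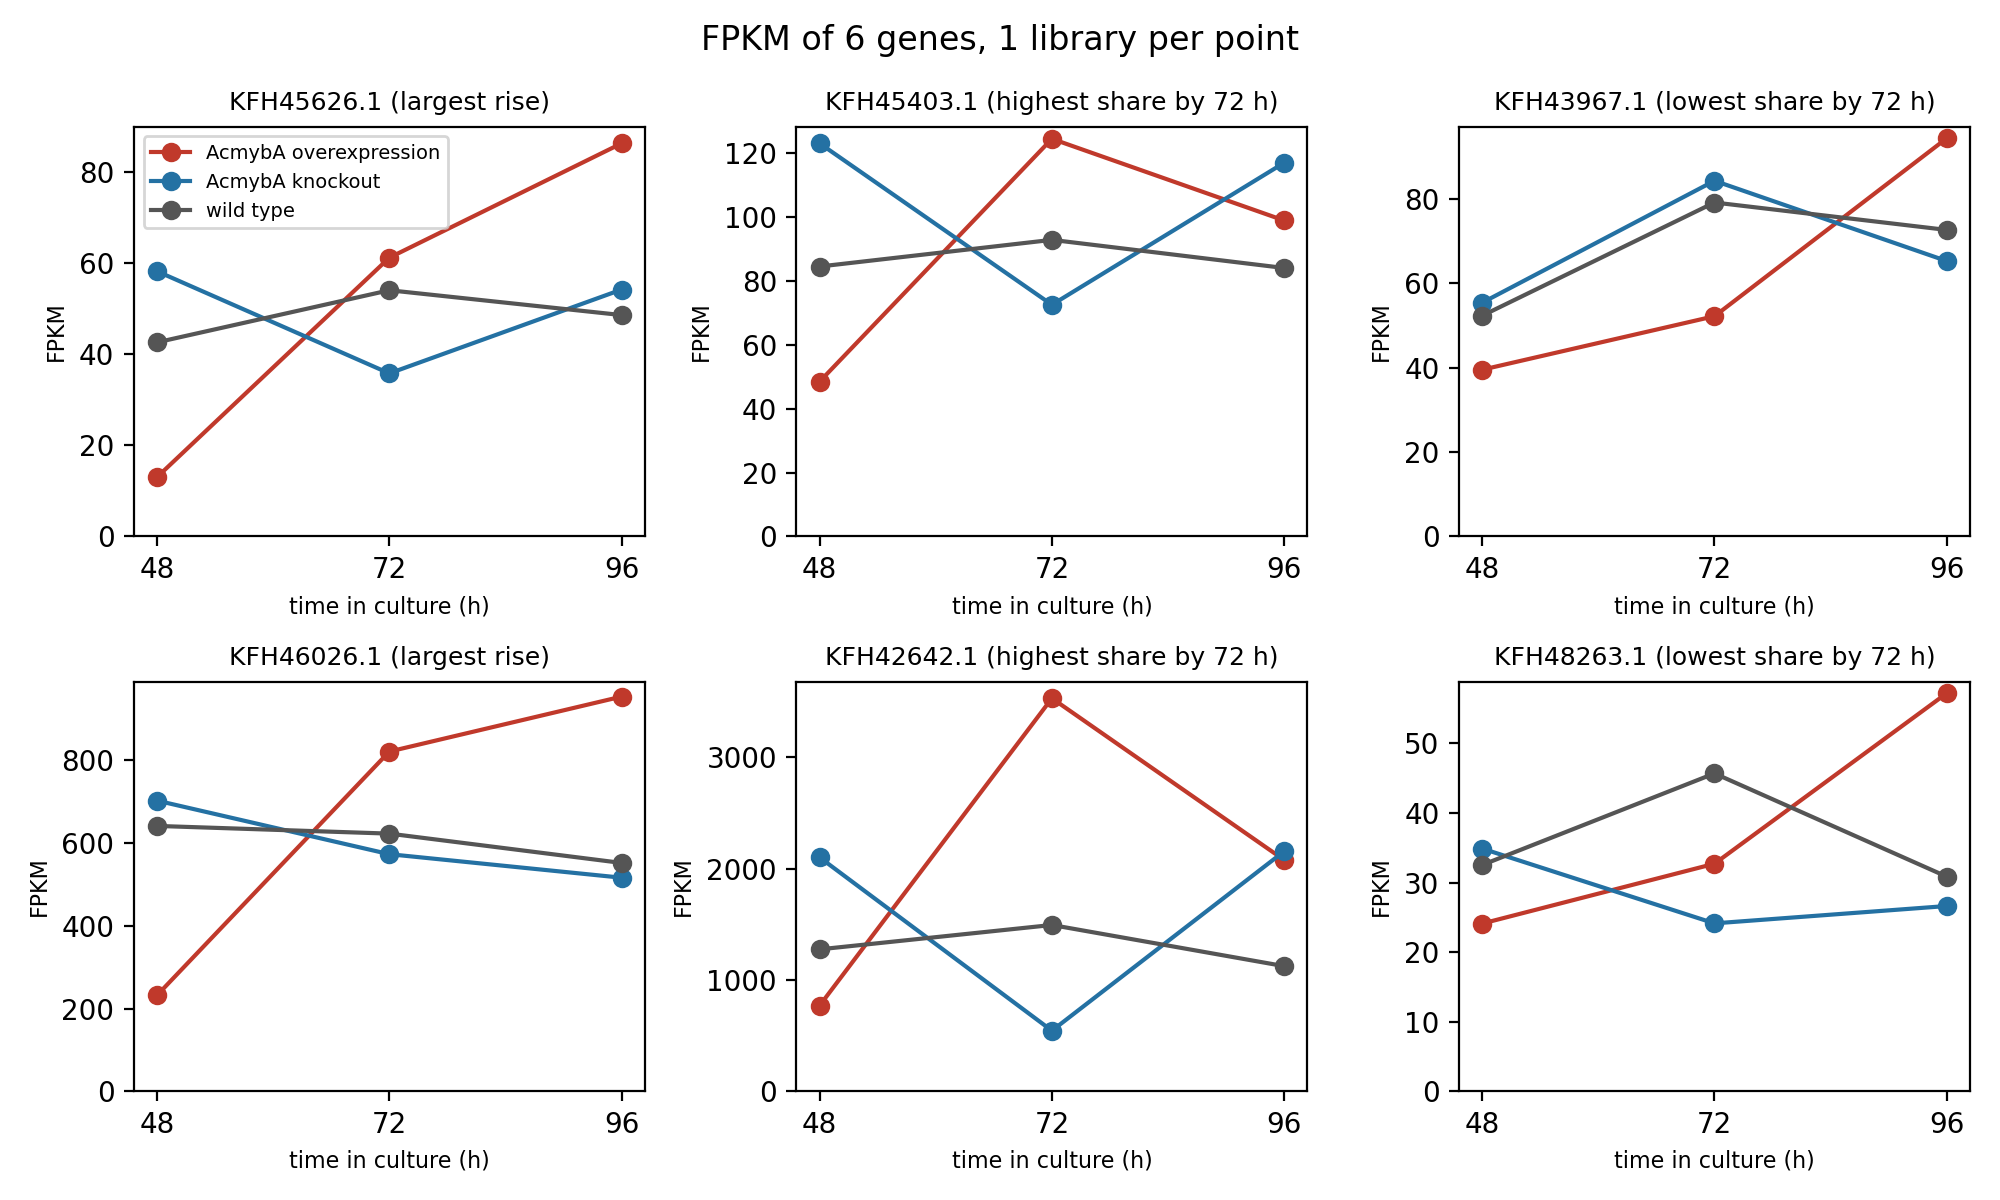
FPKM against time in h for 6 of the 71 genes, with 1 library per point and 1 line per strain. The left panels show the largest differences in overexpression, the middle panels genes highest at 72 h, and the right panels the genes with the smallest part reached by 72 h.

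The choice set no direct limit on the difference between 72 h and the other times. It kept 48 and 96 h close in the knockout and the wild type, which makes 72 h more often the highest or lowest. The limits on the strain means also bear on the 72 h levels. The shares that follow thus describe the 71 genes and are no separate support. In the wild type, 72 h was the highest of the 3 times in 43 of the 71 genes, or 60.6%, against 30.2% of all genes. In the knockout, 72 h was the lowest of the 3 times in 36, or 50.7%, against 30.3% of all genes. Among the 990 genes higher by at least 1 in overexpression, these shares were 50.2% and 25.7%. The median departure of the 72 h library from the mean of 48 and 96 h was 0.38 in overexpression, -0.14 in the knockout and 0.21 in the wild type. Over all genes the medians were -0.002, -0.035 and -0.003 in the same strains. Over the 990 they were 0.54, -0.006 and 0.52, so larger than in the 71 in overexpression and the wild type. Taken without sign, the median departure was 0.38, 0.23 and 0.25 over the 71 genes and 0.23, 0.23 and 0.30 over all genes, so in size the knockout and wild type departed about as much as other genes. At 72 h overexpression was accordingly close to the wild type, with a median difference of 0.10, and higher than the knockout, with one of 0.42. It was at least 0.5 above the wild type in 12 of the 71 genes, against 17.4% of all genes. It was at least 0.5 above the knockout in 31, or 43.7%, against 23.4% of all genes. Among the 990 these shares were 28.7% and 42.6%, so the share above the knockout was close to that of the 71. The knockout was the lowest strain at 72 h in 51 genes, or 71.8%, against 36% of all genes.

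The strains counted as level leaned unequally. The 96 h minus 48 h difference had a median of 0.04 in the knockout, with 39 of the 71 genes above 0, against 43% of all genes. In the wild type the median was 0.25, with 56 of the 71 above 0, against 49.3% of all genes. The knockout and the wild type were both lower at 96 h in 8 of the 71 genes, against 37.2% of all genes. The choice of genes that gain in overexpression bears on these shares. Most of the 71 genes ended somewhat higher in the wild type too, within the limit of 0.5. Over all 7360 genes the medians were -0.10 in overexpression, -0.10 in the knockout and -0.01 in the wild type.

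Just inside the threshold lay KFH45624.1, whose difference in overexpression barely exceeded 1. It was at 24.8, 53.1 and 50.7 FPKM in overexpression, 47.9, 25.4 and 40.8 FPKM in the knockout, and 31.6, 66.1 and 32.8 FPKM in the wild type. KFH44640.1 met every other condition and was left out at 0.999. It was at 10.02, 16.8 and 21.0 FPKM in overexpression, 17.8, 13.1 and 15.4 FPKM in the knockout, and 15.0, 25.4 and 21.5 FPKM in the wild type. The genes on either side of the threshold thus look alike, and the 71 are the upper end of 2137 genes that met the other conditions.

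A single pair among the 71 carried consecutive identifiers, KFH44785.1 and KFH44786.1, a feature singled out after their values were seen. KFH44785.1 stood at 17.3, 43.2 and 54.0 FPKM in overexpression, 22.4, 28.6 and 21.5 FPKM in the knockout, and 22.6, 34.7 and 29.4 FPKM in the wild type. KFH44786.1 stood at 11.7, 26.8 and 33.8 FPKM in overexpression, 19.5, 16.5 and 17.3 FPKM in the knockout, and 14.7, 18.5 and 15.8 FPKM in the wild type. Their differences in overexpression were 1.59 and 1.46. Whether they are neighbours in the genome was not looked up.

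The same rule was applied with the strains exchanged and the direction turned. Genes higher at 96 h in a single strain numbered 71 (0.965%) for overexpression, 13 (0.177%) for the knockout and 24 (0.326%) for the wild type. Genes lower at 96 h in a single strain numbered 202 (2.74%), 20 (0.272%) and 26 (0.353%) in the same order. Overexpression thus had the most genes in either direction with FPKM as deposited, after median-of-ratios rescaling, after quantile normalisation and with equal totals. It also had the most genes changing by at least 1 with no limit on the other strains, as deposited. These were 13.5% higher and 16.9% lower, against 6.97% and 9.65% in the knockout and 10.6% and 7.23% in the wild type. Among the genes the rule picked in overexpression, the lower ones outnumbered the higher ones, but this split depends on scaling. It was 96 higher and 166 lower after median-of-ratios rescaling, 82 and 160 after quantile normalisation, and 170 and 65 when each library was brought to the same total. The deposited total was 1124539 in overexpression at 48 h and 852915 at 96 h, and the median difference of all genes in this strain was 0.28 with equal totals and -0.10 as deposited. Taken relative to the median of all genes, the median difference of the 71 in overexpression was 1.33 as deposited and 1.32 with equal totals. Equal totals shift all genes of a library nearly alike, so this closeness follows from the calculation and is no separate support.

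**Figure D5:**
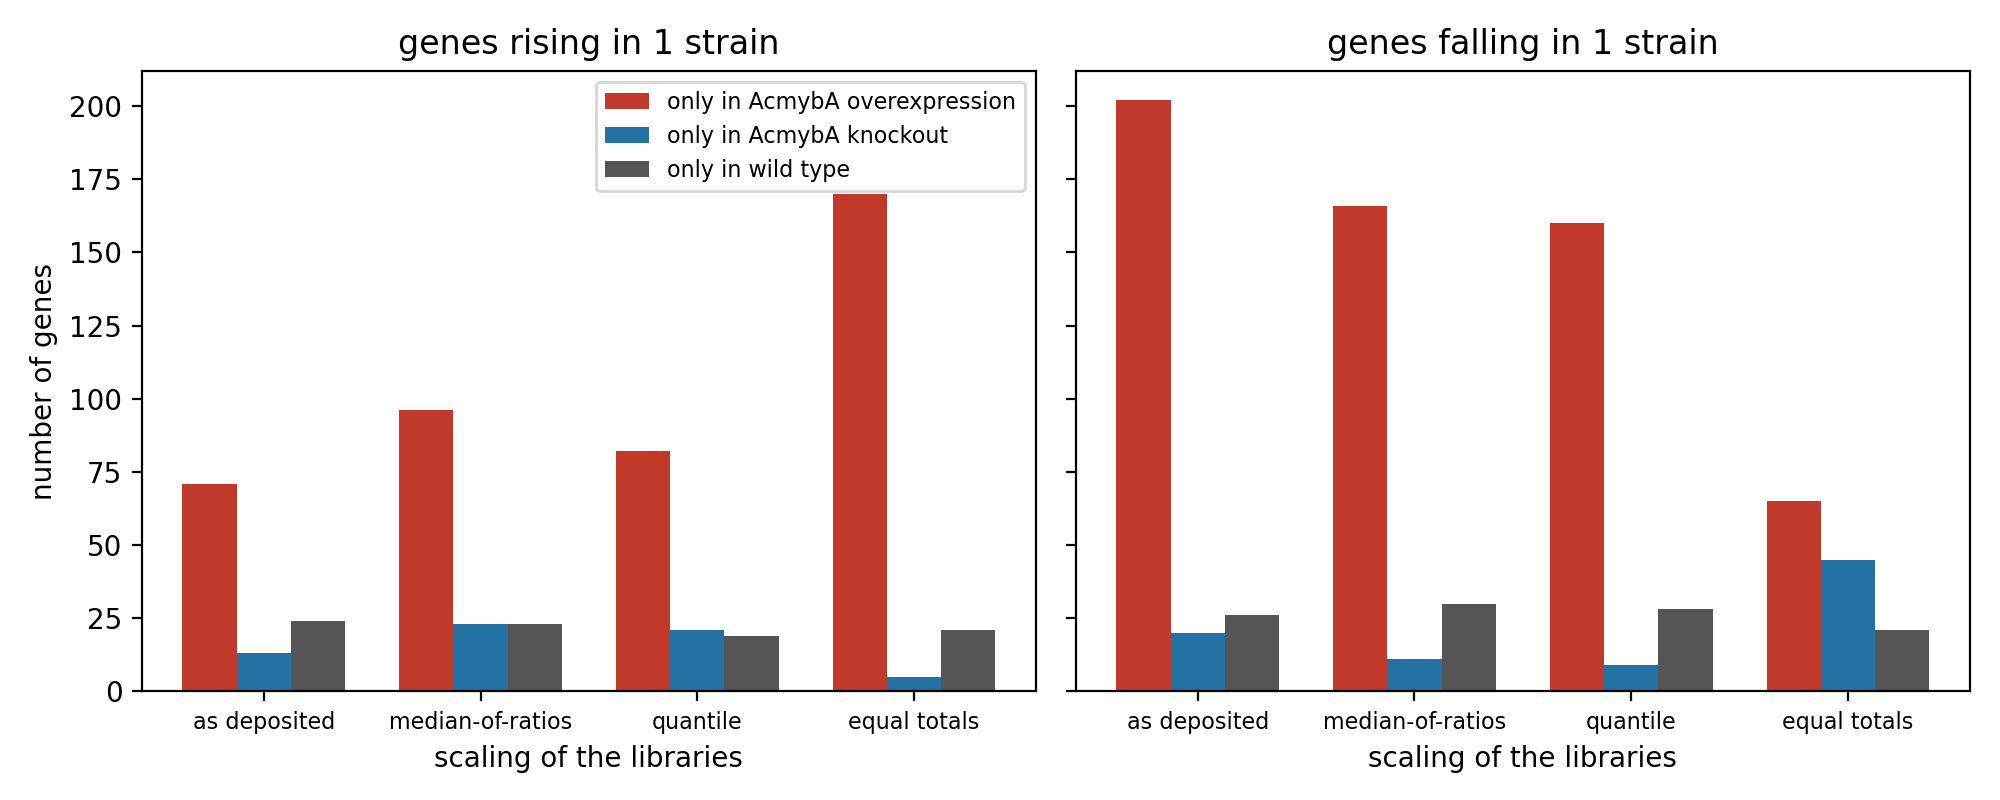
Number of genes higher (left) or lower (right) at 96 h than at 48 h in a single strain by the same rule, under 4 scalings of the libraries. Overexpression has the tallest bar in each group; as deposited it stands at 71 and 202 genes, with equal totals at 170 and 65.

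The 202 genes that were lower at 96 h in overexpression alone mirrored the 71, largely because the same rule with its sign turned picked them. Their median difference was -1.25, with 75.5% of it reached by 72 h, against 1.22 and 80.0% in the 71. Overexpression lay above the mean of the other strains by 0.60 at 48 h in the 202 genes, and below it by 0.56 in the 71. In both sets the larger step was the one that starts from the overexpression library at 48 h. That library has no replicate, so its part in these counts was not tested. When the rule was applied to 96 h minus 72 h, an alternative chosen after seeing the data that does not use the 48 h levels in the time difference, 1 gene met it, and it was not among the 71. Applied to 72 h minus 48 h it gave 48 genes, of which 15 were among the 71.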

How the data were processed

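RNA was taken with Trizol from flash-frozen mycelium and made into Illumina libraries, per the labels' protocols. CASAVA and HISAT2 2.0.5 stand, with no role, in the submitters' processing notes. Build and counting tool: not given in the sources used here. FPKM, relative to transcript length and depth, was taken as the unit of the authors' deposited values. This unit was inferred, since the header names only libraries. The values (6 significant digits, unequal totals) are compatible with it but do not settle it. All 9 columns matched a library by title, and 0 were left over. No annotation was used here.

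Values were taken as log2(FPKM + 1), a pseudocount of 1 that understates changes of low genes, in Python 3.11.15 with pandas 2.3.3. The rule was tried on simulated tables with planted genes. With 1 library per strain and time, nothing was tested. Relative depth was the likeliest fit of whole-read ratios at genes under 2 FPKM in every library, tried on simulated reads. Alternatives varied pseudocount, mean floor, scaling and the times used.

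The genes and rules were chosen with earlier results of these data known. Genes were named as the 10 largest differences, the 10 highest means, 3 on each side of the threshold, the extremes of the part reached by 72 h, and the least range. This gave 27 genes. Because identifiers carry no names, only some are printed.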

Additional observations from a re-analysis of the deposited data

Results flagged for a closer look

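In 5 of the 24 named genes among the 71, overexpression was higher at 96 h than at 48 h while the knockout and the wild type were both lower, on the log2(FPKM + 1) scale. Over all 71 genes the knockout and the wild type were both lower in 8, against 37.2% of all 7360 genes. The choice of genes that gain in overexpression and change little elsewhere bears on this share, so the contrast is no separate support. The gain in overexpression was 2.03 in KFH46026.1, 1.61 in KFH45987.1, 1.26 in KFH48140.1, 1.21 in KFH48263.1 and 1.01 in KFH45403.1. The changes in the knockout were -0.44, -0.25, -0.04, -0.38 and -0.07, and in the wild type -0.22, -0.24, -0.13, -0.07 and -0.01, in the same order. The rule keeps the other strains under 0.5 in size but does not set their sign. With 1 library per strain and time, the difference between strains was not tested.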

How the results depend on the processing

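The 71 genes became 58 to 96 under pseudocounts of 0.1 and 5, mean floors of 5, 20 or none, median-of-ratios rescaling, quantile normalisation and strain means without 72 h, and 48 with 72 h minus 48 h. Of the 71, quantile normalisation kept 48, a pseudocount of 5 kept 47, 72 h minus 48 h kept 15, and the others named kept 58 to 71. Equal totals gave 170, of which 43 were among the 71; of the 28 that left, 18 had a wild-type difference of 0.5 or more. With 96 h minus 72 h 1 gene was left. With a pseudocount of 5, 47 of the 71 still had a difference of at least 1. Lower only in the knockout became 11 with a floor of 20, 45 with equal totals, 11 with median-of-ratios and 9 with quantile normalisation. Higher only in the knockout became 5, 23 and 21 under these scalings, and lower only in overexpression 65 with equal totals. The median difference of the 71 in overexpression stayed between 1.07 and 1.60. The causes were not tested. Levels under 10 FPKM, which 10 of the 71 had in overexpression at 48 h, rest on the fewest reads. No paired analysis was possible because the results come from no test and the labels give no replicate numbers. Leaving out a library of 48 or 96 h leaves no difference to compute. Gene lists and promoter motifs were not run, since no annotation was used here.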
